A study of Mus musculus with 4 samples.

Results

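The genes described here encode the actin-based contractile apparatus and its attachments, and are widely listed as targets of serum response factor (SRF). Membership was set by name: 39 names were given, and every probe set that the platform annotation ties to exactly 1 of these symbols was taken. This gave 81 probe sets of 37 genes, among 22690 probe sets on the array. Myh10 had no probe set with a single symbol, and Transgelin is the protein name of Tagln. Of the 81 probe sets, 3 are chip controls for Actb, 65 were called present on at least 2 of the 4 arrays and entered the tests, and 13 did not. The tested probe sets read 33 genes, each represented here by its brightest probe set on average, and 31 of them were called present on all 4 arrays. The remaining 4 genes had no tested probe set: the cardiac actin Actc1, the smooth muscle myosin heavy chain Myh11 and leiomodin 1 (Lmod1) were absent on every array, and the skeletal muscle actin Acta1 was present on 1.

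RNA came from mouse embryonic fibroblasts (MEFs), connective tissue cells grown out of mouse embryos, and was read on Affymetrix MOE430A arrays. The 2 mTert samples had been infected with the retrovirus pBabePuro carrying the mouse gene for the catalytic subunit of telomerase, and the 2 control samples with the same puromycin-resistance virus without an insert. The labels name no mouse strain, passage or promoter for the insert, and do not say what the numbers 1 and 2 in the sample titles stand for or whether arrays of 1 group came from separate cultures. The p-values thus rest on how far these 4 samples differ among themselves, and that spread may be technical. Signals are in arbitrary units on arrays scaled to a common mean, and can be compared between arrays but not between probe sets.

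SRF is a transcription factor that binds the CArG box, a short A/T-rich element flanked by C and G pairs. When actin filaments assemble, the cofactors MRTF-A and MRTF-B are freed from actin monomers, enter the nucleus and drive contractile genes together with SRF. A second set of cofactors, the ternary complex factors, answers to MAP kinases and serves immediate-early genes instead. In fibroblasts high expression of Acta2, Tagln and Cnn1 marks the contractile, myofibroblast-like state.

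To show which of these genes carry the element close to the start, RefSeq sequence of build GRCm38.p6 was searched on both strands, from 250 bases before to 50 bases after each annotated start. An exact CArG box (10 bases: CC, then 6 bases that are each A or T, then GG) was found in 8 of 39 windows of member genes, or 20.5%, and in 1.63% of all 32851 windows. Allowing 1 letter to differ, the shares were 43.6% of member windows and 21.1% of all windows. The genes with an exact box were Acta1, Actc1, Actg1, Cnn2, Myl6, Myl9, Vcl and Srf itself, of which Acta1 and Actc1 were not tested. The table held no window for Tagln, Actg2, Actb and Csrp2. The 250 bases before the start are printed for 5 tested genes with an exact box and for Acta2, the gene most used as a myofibroblast marker. They lie at chr19:34255374-34255623 on the minus strand for Acta2, chr2:156775214-156775463 on the plus strand for Myl9, chr10:79988350-79988599 on the plus strand for Cnn2, chr14:20929148-20929397 on the plus strand for Vcl, chr11:120348496-120348745 on the minus strand for Actg1 and chr17:46556163-46556412 on the minus strand for Srf. Capitals mark the exact boxes and, for Acta2, which holds none, its 2 matches that differ in 1 letter.
Acta2: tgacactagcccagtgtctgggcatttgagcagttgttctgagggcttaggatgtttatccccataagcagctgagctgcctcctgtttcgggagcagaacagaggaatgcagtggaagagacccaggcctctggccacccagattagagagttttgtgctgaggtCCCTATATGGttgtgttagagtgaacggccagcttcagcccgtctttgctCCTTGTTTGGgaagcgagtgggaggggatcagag
Myl9: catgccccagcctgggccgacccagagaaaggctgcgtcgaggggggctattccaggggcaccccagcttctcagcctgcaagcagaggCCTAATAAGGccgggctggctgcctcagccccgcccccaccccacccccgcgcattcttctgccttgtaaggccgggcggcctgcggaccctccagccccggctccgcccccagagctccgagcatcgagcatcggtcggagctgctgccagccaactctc
Cnn2: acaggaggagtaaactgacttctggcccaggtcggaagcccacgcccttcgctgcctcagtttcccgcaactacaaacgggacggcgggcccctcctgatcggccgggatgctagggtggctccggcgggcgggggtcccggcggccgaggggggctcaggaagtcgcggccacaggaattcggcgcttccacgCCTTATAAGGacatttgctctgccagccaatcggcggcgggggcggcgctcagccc
Vcl: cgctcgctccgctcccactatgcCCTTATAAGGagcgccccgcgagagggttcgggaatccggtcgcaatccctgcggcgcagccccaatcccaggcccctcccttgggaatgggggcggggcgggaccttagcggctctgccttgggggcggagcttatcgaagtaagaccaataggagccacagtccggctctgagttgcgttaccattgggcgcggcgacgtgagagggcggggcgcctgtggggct
Actg1: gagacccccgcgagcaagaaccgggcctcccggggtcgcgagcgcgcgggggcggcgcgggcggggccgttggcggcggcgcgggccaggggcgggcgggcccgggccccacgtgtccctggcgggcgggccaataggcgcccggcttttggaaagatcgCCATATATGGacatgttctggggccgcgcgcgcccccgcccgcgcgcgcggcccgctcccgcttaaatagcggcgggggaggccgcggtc
Srf: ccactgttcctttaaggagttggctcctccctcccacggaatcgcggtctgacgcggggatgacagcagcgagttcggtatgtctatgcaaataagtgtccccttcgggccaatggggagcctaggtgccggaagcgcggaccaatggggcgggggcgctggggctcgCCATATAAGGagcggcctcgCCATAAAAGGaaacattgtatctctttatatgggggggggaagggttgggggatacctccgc
A match is a run of letters and not a measured binding site. The box lies 161 to 152 bases before the start in Myl9, 56 to 47 in Cnn2, 227 to 218 in Vcl and 90 to 81 in Actg1. In Myl6, also tested but not printed, it lies 50 to 41 bases before the start. Srf holds 2 boxes, at 82 to 73 and at 62 to 53 bases before its start. The matches in Acta2 lie 84 to 75 and 34 to 25 bases before the start.

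Tert, the gene of the insert, was called present on both mTert arrays, with signals of 1165 and 845, and absent on both control arrays, with 128 and 84.7. Between 51.6% and 54.4% of probe sets were called present on the 4 arrays. The instrument records give 15 µg of labelled cRNA for 3 arrays and 5 µg for control 1, and a wash module of its own for each array. All 12 fibroblast markers examined were detected. None of the 8 skeletal muscle, 6 cardiac and 5 epithelial markers passed the presence filter. Of 6 smooth muscle markers, Smtn and Actg2 were present on 4 arrays and Cnn1 on 3, while Myocd, Myh11 and Lmod1 were absent on every array. Of the 5 endothelial markers 2 passed the filter, and of the 2 adipocyte markers matched to a probe set 1 did.

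Between the arrays numbered 2 and those numbered 1, most of the contractile genes had a lower signal on number 2, and a few of these differences passed the test. The median log2 difference, number 2 minus number 1 with the group as a term, was -0.20 over the 33 genes (quartiles -0.30 and -0.12), and 0.00074 over all 12396 probe sets tested. The signal was lower on number 2 in 31 genes and higher in 2, Myl6 and Smtn. The array of number 2 was the lower one in both the mTert and the control pair for 26 genes, or 78.8%, against 26% of all probe sets, and 1 gene was higher in both pairs, against 26.5%. Both arrays numbered 2 lay below both arrays numbered 1 in 25 genes, or 75.8%, against 19.4% of all probe sets. Limma with Benjamini-Hochberg adjustment over all probe sets called 6 genes lower, or 18.2%, where it called 1.07% of all probe sets lower: Tagln, Actg2, Myl9, Csrp1, Cnn1 and Acta2. It called 0 genes higher, where it called 1.73% of all probe sets higher. At an unadjusted limma p under 0.05 there were 15 genes lower and 0 higher, where 4.97% of all probe sets were lower and 5.26% higher. By size, 1 gene (Actg2) was over 1.5-fold lower in both pairs and 0 were over 1.5-fold higher, against 0.823% and 1.67% of all probe sets. In these bulk samples fewer cells of a type and less RNA per cell cannot be told apart.

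**Figure D1:**
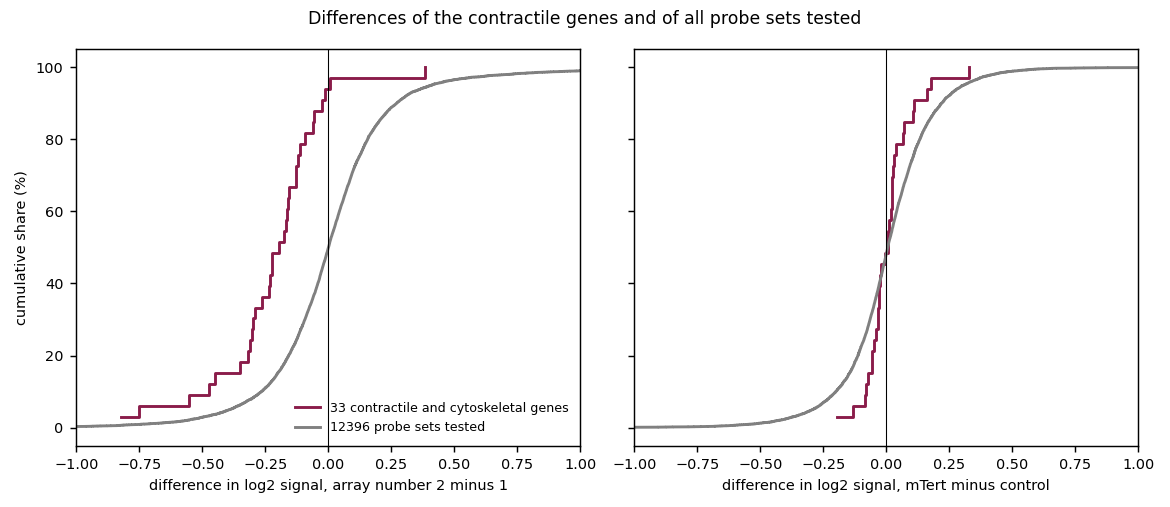
The cumulative share of the 33 contractile and cytoskeletal genes (1 probe set each) and of all 12396 probe sets tested is plotted against the log2 difference between arrays numbered 2 and 1 (left) and between mTert and control (right). On the left the curve of the genes lies to the left of the curve of all probe sets, with medians of -0.20 and 0.00074, and on the right both cross at about 0, with medians of 0.0065 and 0.0058.

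The 6 calls were not stable across settings of the fit, which has 1 residual degree of freedom. Without the trend of spread with intensity, limma called 0 of the 33 genes, and with an array left out it called 3 without mTert 1, 1 without control 1 and 0 without mTert 2 or without control 2, in fits that also leave out the group term. The sign of the median was the same in both pairs. The median was -0.18 within the mTert pair and -0.22 within the control pair. The cRNA amount differed within the control pair only. The array mTert 2 was scanned 91 minutes after the first array, and the others within 22 minutes of it. The part of cRNA amount and scan time in these differences was not tested. Markers of cell types moved with the numbers as well. All 10 macrophage markers were called higher on number 2, with a median log2 difference of 1.96, and their summed signal was 13271 on mTert 2 and 12883 on control 2, against 3418 on mTert 1 and 3141 on control 1. The summed signal of the 12 fibroblast markers was 96793 and 98579 on mTert 2 and control 2, against 101584 and 104658 on mTert 1 and control 1. Of these markers 8 were lower on number 2 and 4 were higher, with a median log2 difference of -0.11. Thy1 (-0.68) and Dcn (-0.51) were called lower, and none was called higher. The part of these other transcripts in the result was not tested.

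**Figure D2:**
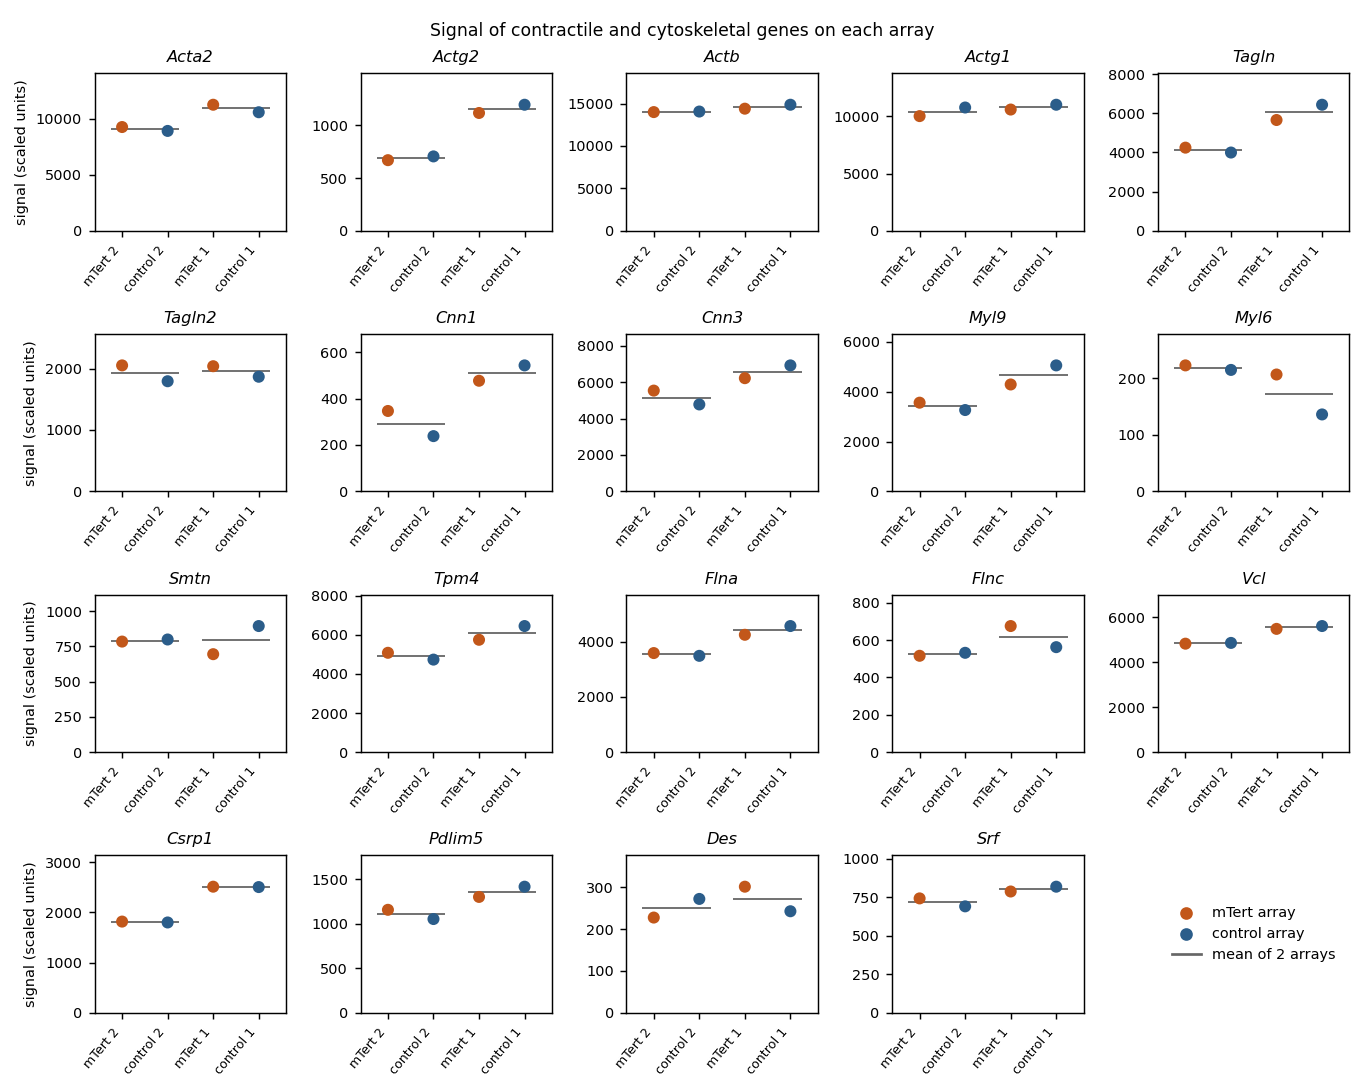
Signal in scaled units on each of the 4 arrays, on axes that start at 0, for 19 of the genes; orange points are mTert arrays, blue points control arrays, and lines the mean of the 2 arrays with the same number. Actg2, Tagln, Cnn1, Myl9, Csrp1 and Acta2 have both points of number 2 below both points of number 1. So has Actb, by a mean of only 0.06 on the log2 scale. Actg1 differs by 0.06 with overlapping points, and Myl6 is higher on number 2.

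Actins form the filaments on which myosin pulls, and mice have muscle forms and the cytoplasmic forms Actb and Actg1. Of the 4 tested actins, the 2 smooth muscle forms fell on number 2 and the 2 cytoplasmic forms did not pass the test. Actg2, the enteric smooth muscle actin, had signals of 670.5 on mTert 2 and 706 on control 2, against 1119 on mTert 1 and 1197 on control 1. The groups of arrays were far apart, and the pairs differed by nearly the same amount, -0.74 in mTert and -0.76 in control. The log2 difference was -0.75 (SE 0.14, limma adjusted p = 0.0061), or 1.68-fold lower. Acta2, the vascular smooth muscle actin that is switched on in myofibroblasts, had 9266 and 8919 on mTert 2 and control 2, against 11258 and 10588 on mTert 1 and control 1. It fell by 0.26 on the log2 scale (SE 0.07, limma adjusted p = 0.047), 1.20-fold, and missed the threshold in all 9 alternative settings. Actb had 13997 and 14060 on the arrays numbered 2, against 14398 and 14863 on those numbered 1, a difference of -0.06 (95% interval -0.19 to 0.07). Actg1 had 10017 on mTert 2 and 10767 on control 2, against 10589 on mTert 1 and 11009 on control 1, so that its values overlap. Its difference was -0.06 (95% interval -0.20 to 0.09). Actin genes are much alike in coding sequence, and whether a probe set of one also read another was not tested.

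The calponin family binds along actin filaments and includes some of the most used markers of smooth muscle differentiation. It had the lowest median of the groups of roles, -0.35 over 5 genes, all of them lower on number 2 and 2 of them called. Tagln, which encodes transgelin or SM22, had the smallest p of all 33 genes. Its signal was 4243 on mTert 2 and 3993 on control 2, against 5654 on mTert 1 and 6434 on control 1. It fell by 0.55 on the log2 scale (SE 0.09, limma adjusted p = 0.0017), and the 95% interval ran from -0.75 to -0.36. Cnn1, calponin 1, which restrains actin-activated myosin in smooth muscle, had the largest difference of the 33 genes. It gave 346 on mTert 2 and 238 on control 2, against 476.5 on mTert 1 and 543 on control 1, and its call on control 2 was absent. The difference was -0.82 (SE 0.20, limma adjusted p = 0.036), with -0.46 in the mTert pair and -1.19 in the control pair, and it missed the threshold in all 8 alternative settings that gave a value. Cnn3, the non-muscle form, had 5536 and 4776 on mTert 2 and control 2, against 6218 and 6920 on mTert 1 and control 1, a difference of -0.35 that just missed the threshold (SE 0.09, limma adjusted p = 0.055). A dimmer Cnn3 probe set was called higher, at 0.45 (limma adjusted p = 0.019). The difference was -0.30 for Cnn2 and -0.02 for Tagln2, the broadly expressed relative of transgelin.

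Myosin subunits and the proteins that regulate the thin filament made up 10 tested genes, with a median of -0.15, 8 lower and 2 higher on number 2, and 1 call. Myl9, a regulatory light chain whose phosphorylation switches on smooth muscle and non-muscle myosin, had 3561 on mTert 2 and 3266 on control 2, against 4291 on mTert 1 and 5057 on control 1. It fell by 0.45 (SE 0.10, limma adjusted p = 0.022), or 1.37-fold. The closely related regulatory light chain Myl12a lay at -0.09, with 0.07 in the mTert pair and -0.26 in the control pair. Myl6, the essential light chain, stood apart as the only one of the 33 genes with both arrays numbered 2 above both numbered 1, a pattern that 20.3% of all probe sets showed. Its probe set read 222.5 and 214.5 on mTert 2 and control 2, against 206 on mTert 1 and 136 on control 1, and the difference of 0.38 (95% interval -0.12 to 0.89) was not called. Another probe set that lists Myl6 together with other symbols was left out. Tpm4, a tropomyosin of non-muscle cells, had 5083 and 4734 on mTert 2 and control 2, against 5749 and 6453 on mTert 1 and control 1. Its difference of -0.31 did not pass (SE 0.09, limma adjusted p = 0.084). The other tropomyosins lay at -0.22 for Tpm2, -0.18 for Tpm1 and -0.01 for Tpm3. The non-muscle myosin heavy chain Myh9 stood at -0.29, caldesmon (Cald1) at -0.13 and the smooth muscle protein smoothelin (Smtn) at 0.01. The dimmest Cald1 probe set was called lower, at -0.55 (limma adjusted p = 0.010).

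**Figure D3:**
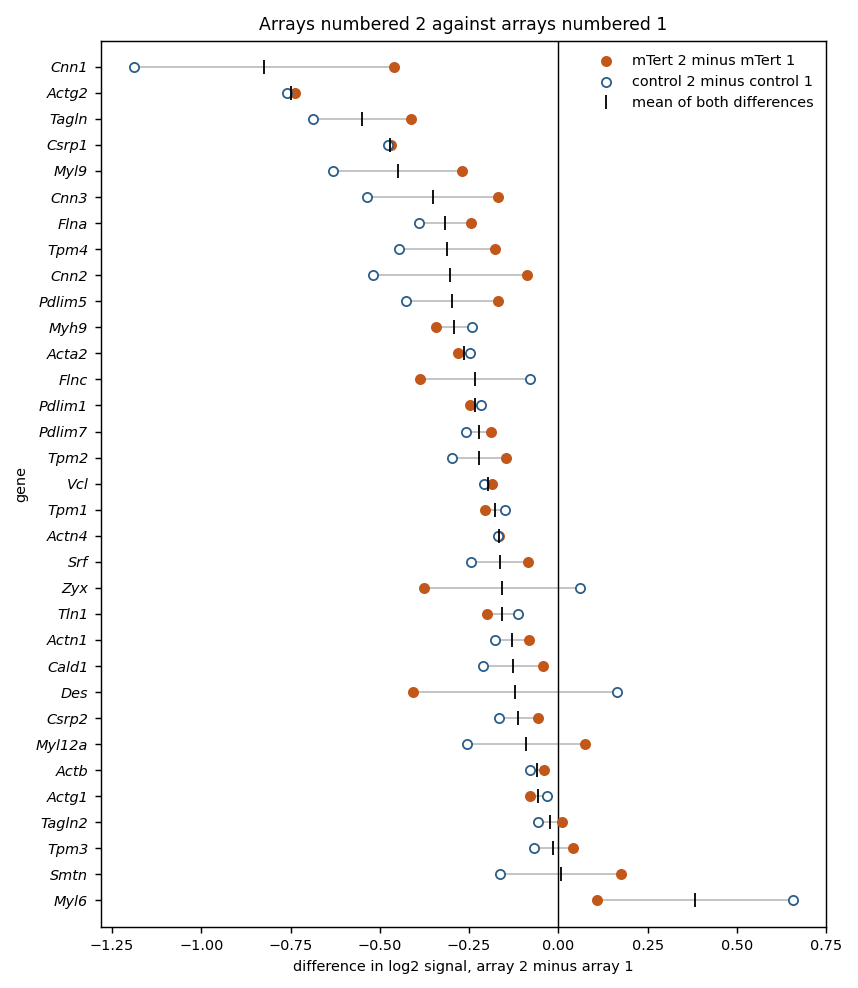
Log2 difference between the array numbered 2 and the array numbered 1 for each of the 33 genes, in the mTert pair (filled orange), in the control pair (open blue) and their mean (tick), sorted by the mean. Cnn1, Actg2 and Tagln lie farthest to the left, both points are left of 0 for 26 genes, and Myl6 lies farthest to the right.

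Proteins that crosslink actin and anchor it at focal adhesions, where cells grip the matrix, had no gene called by its brightest probe set. All 7 tested genes were lower on number 2, between -0.32 and -0.13 with a median of -0.17. Flna, filamin A, which links crossing filaments into a network, had 3588 and 3487 on mTert 2 and control 2, against 4250 and 4567 on mTert 1 and control 1. Its difference was -0.32 (SE 0.09, limma adjusted p = 0.10). Flnc, the muscle filamin, had 516 and 532 on mTert 2 and control 2, against 675 and 562 on mTert 1 and control 1, and its difference of -0.23 had a 95% interval from -0.59 to 0.12. Vinculin (Vcl), which holds actin at stretched adhesions, had 4833 and 4867 on the arrays numbered 2, against 5493 and 5619 on those numbered 1. Its arrays did not overlap, and the difference of -0.20 was not called (SE 0.08, limma adjusted p = 0.39). Talin 1 (Tln1) lay at -0.16, and the alpha-actinins at -0.13 for Actn1 and -0.17 for Actn4. A dimmer Actn1 probe set was called lower, at -0.72 (limma adjusted p = 0.0032). Zyxin (Zyx) was the exception to a common direction, at -0.38 in the mTert pair and 0.06 in the control pair.

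The LIM-domain adaptors had both arrays numbered 2 below both arrays numbered 1 in all 5 genes, where 19.4% of all probe sets showed this, with a median of -0.23 and 1 call. Csrp1, a cysteine-rich LIM protein of smooth muscle that binds alpha-actinin and zyxin, had 1816 on mTert 2 and 1798 on control 2, against 2511 on mTert 1 and 2504 on control 1. The pairs were close, at -0.47 in mTert and -0.48 in control, and the gene fell by 0.47 (SE 0.11, limma adjusted p = 0.028), or 1.39-fold. Pdlim5, a PDZ-LIM protein that ties kinases to alpha-actinin, had 1156 and 1052 on mTert 2 and control 2, against 1300.3 and 1415 on mTert 1 and control 1, a difference of -0.30 that was not called. Pdlim1, Pdlim7 and Csrp2 lay at -0.23, -0.22 and -0.11.

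Desmin (Des), the intermediate filament protein of muscle, was near the limit of detection. It was present on 3 arrays and marginal on mTert 2, with 228 and 272 on mTert 2 and control 2, against 302 and 243 on mTert 1 and control 1. Its values overlap, and the pairs had opposite signs, -0.41 in mTert and 0.17 in control. Srf had 742 and 690.4 on mTert 2 and control 2, against 787 and 818 on mTert 1 and control 1. Its difference of -0.16 was not called (95% interval -0.49 to 0.16), and its other tested probe set had the opposite sign, at 0.36. Neither of the 2 differences was called.

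Among the tested genes that have a promoter window, the 6 with an exact CArG box had a median difference between the numbers of -0.18, and the 23 without one -0.22. The values ran from -0.45 to 0.38 with a box, the highest being Myl6, and from -0.82 to 0.006 without one. Myl9 was the only called gene with an exact box in its window. Of the other called genes, Cnn1, Csrp1 and Acta2 had a window without one, and Tagln and Actg2 had no window.

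Where a gene had several tested probe sets, these mostly had the same sign. Of 15 such genes, 9 had all their probe sets on the same side between the numbers. Over all 65 tested probe sets 57 were lower on number 2, 9 were called lower by limma, or 13.8%, and 1 higher, against 2.8% of all probe sets in either direction. Both probe sets of Csrp1 were called, at -0.47 and -0.53. A dimmer probe set of Actn1 read 1052 and 1050.3 on mTert 2 and control 2, against 1732 and 1723 on mTert 1 and control 1, and fell by 0.72 (SE 0.13, limma adjusted p = 0.0032), whereas the brightest one lay at -0.13. For Cald1 the dimmest probe set fell by 0.55 (SE 0.11, limma adjusted p = 0.010), where the brightest lay at -0.13. The probe set called higher belonged to Cnn3, at 0.45 (SE 0.10, limma adjusted p = 0.019), while the other 5 tested probe sets of that gene lay between -0.35 and -0.17. The suffix of its name (x_at) marks probes that may also bind other transcripts. The brightest Cnn3 probe set and most of the others bear the same suffix, so it does not set this probe set apart. The remaining genes with probe sets on both sides were Tpm1, Tpm2, Tpm3, Actb and Srf.

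**Figure D4:**
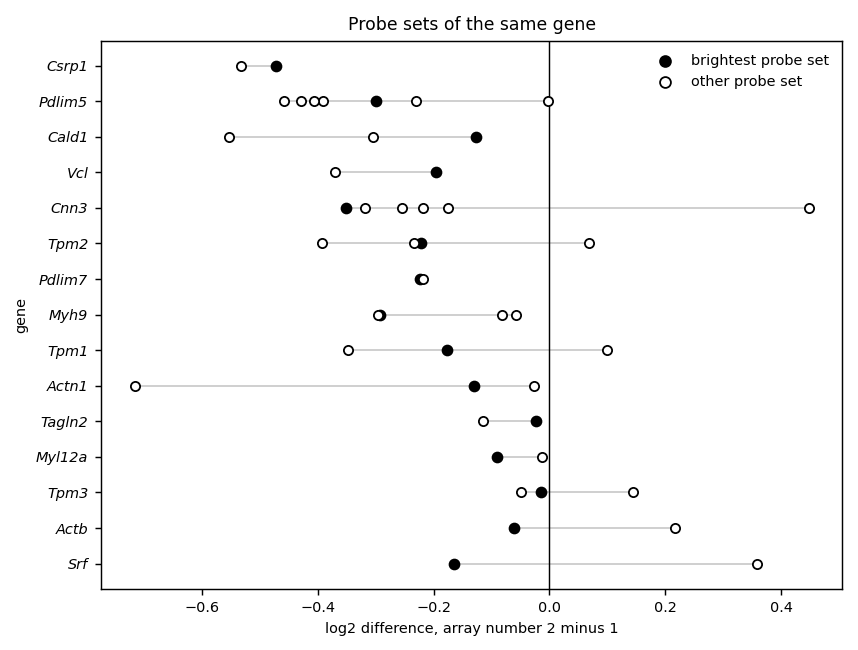
Log2 difference between arrays numbered 2 and 1 for each tested probe set of the 15 genes that have several; filled points are the brightest probe set of the gene and open points the others. Both Csrp1 points lie near -0.5, Actn1 and Cald1 spread widely to the left, and 1 Cnn3 point lies at 0.45, apart from the other Cnn3 points.

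Between mTert and control no difference in these genes passed the test. In that comparison the 33 genes had a median log2 difference of 0.0065 (quartiles -0.04 and 0.03), and all probe sets tested had 0.0058. The mTert mean was higher in 17 genes and lower in 16. Limma called 0 genes, and 0 had an unadjusted p under 0.05, where it called 0% of all probe sets after adjustment and 2.11% had such an unadjusted p. The groups did not overlap in 3 genes, or 9.09%, against 25.5% of all probe sets: Tagln2 was above the controls, and Actg1 and Smtn were below. The median was -0.06 between the arrays numbered 1 and 0.05 between those numbered 2. With 2 arrays against 2, an exact permutation test of a single gene cannot give a two-sided p under 0.333, so no single gene could pass such a test. The same limit holds for number 2 against number 1, where the calls rest on limma.

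The intervals show how large a difference could have been missed in this fit. It has no term for the array number, so differences between the numbers widen the intervals. Myl6 had the largest difference, with 206 and 222.5 on mTert 1 and mTert 2, against 136 and 214.5 on control 1 and control 2. Its log2 difference was 0.33, with a 95% interval from -0.32 to 0.97. It was 0.60 between the arrays numbered 1 and 0.05 between those numbered 2. Smtn had 695 and 784.5 in mTert, against 895 and 799 in control, a difference of -0.20 (95% interval -0.53 to 0.14). Tagln2 had 2038 and 2052 in mTert, against 1867 and 1794 in control, a difference of 0.16 (95% interval -0.08 to 0.40). For Cnn1 the difference of 0.18 had an interval from -0.78 to 1.13 and its arrays spread widely within each group. Among the other genes given for every array, Acta2 stood at 0.07 (95% interval -0.23 to 0.38), Tagln at -0.05 (-0.64 to 0.54) and Myl9 at -0.06 (-0.57 to 0.46). Vcl at -0.02 and Actb at -0.03 had narrower intervals, -0.29 to 0.24 for Vcl and -0.18 to 0.13 for Actb. Srf stood at 0.02 (95% interval -0.32 to 0.37) and Des at 0.03 (-0.48 to 0.53).

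**Figure D5:**
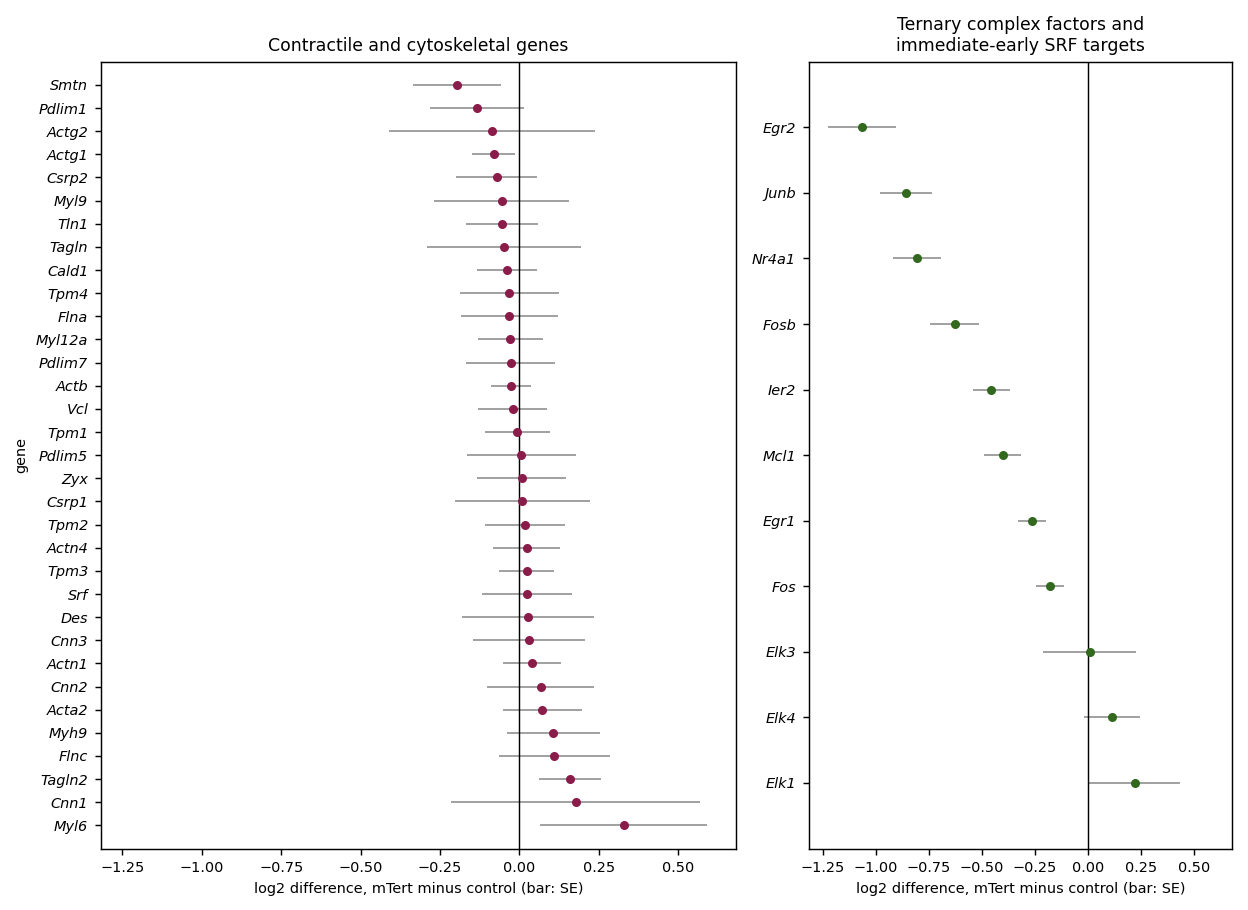
Log2 difference, mTert minus control, with its limma standard error, for the 33 contractile and cytoskeletal genes (left) and for 11 genes of the ternary complex factors and their immediate-early targets (right), on axes of the same range. The genes on the left lie between -0.20 and 0.33, and 8 of the 11 on the right lie below 0, down to -1.07.

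The other branch, of ternary complex factors and immediate-early SRF targets, gave different values in the same comparison. The 11 tested genes of this branch had a median of -0.40. In 8 of them both mTert arrays lay below both control arrays, against 12.1% of all probe sets. All 8 were immediate-early genes, while the other 3, the ternary complex factors, overlapped and lay between 0.009 and 0.22. Junb had 2701 and 3266 in mTert, against 5078 and 5707 in control, and Nr4a1 and Egr2 stood at -0.81 and -1.07. With the group as the only term, none passed limma over all probe sets, the smallest adjusted p being 0.94. At an unadjusted limma p under 0.05, 8 were lower, against 2.11% of all probe sets in either direction. With the array number added as a block, an alternative fit, limma called 4 of the 11 lower (adjusted p between 0.00026 and 0.0093). That fit called 0.145% of all probe sets in either direction. Whether this branch differs from the contractile genes was not tested. Between the numbers the same 11 genes had a median of -0.06, and 0 were called, with 1 higher and 1 lower at an unadjusted limma p under 0.05.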

How the data were processed

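RNA of 4 samples was measured, 1 array each, and samples took their group and number from the titles. A linear intensity per probe set was deposited by the authors with a present, marginal or absent call, per the file headers, and a detection p-value beside it, which was not used. Which software summarised the probes was not given in the sources used. As deposited, the mean signal without the lowest and highest 2% was 498.6 to 498.8 on the 4 arrays. Signals were rescaled to a common value of that mean and taken to log2, with 1 zero set to the lowest present signal. The 64 control probe sets were left out, and probe sets present on at least 2 of 4 arrays were kept, 12396 in all.

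Limma 3.58.1 in R 4.3.3 (eBayes with an intensity trend) tested mTert against control with no other term, and number 2 against number 1 with the group as a term, with Benjamini-Hochberg adjustment over all kept probe sets at 0.05. The second fit leaves 1 residual degree of freedom and a median prior of 15.5, and on simulated data it made more false calls than its threshold allows. The same number in both groups is not known to mark a shared source, so the block on number is an alternative only. GEO's platform annotation supplied the symbols, with 1 symbol for 20380 probe sets, several for 691 and none listed for 1555. Promoter sequences are RefSeq's.

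The members and lists were chosen with earlier results of these data known. Values per array are given for the 4 actins or calponins, 3 myosin or thin filament genes and 4 crosslinker, adhesion or LIM genes with the largest difference between the numbers, the 4 genes with the largest difference between the groups, and Srf, Acta2, Tagln, Cnn1, Myl9, Actb, Actg1, Vcl and Des. From other lists at most 3 genes with the smallest p are named for a comparison, plus Fosb, which the fit with the block also called. The results of 1 further gene list are not reported here. The alternatives were the filter on calls, quantile normalization, no intensity trend, the terms of the fit, all probe sets of a gene, and each array left out. Precision is limited by there being 4 arrays.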

Additional observations from a re-analysis of the deposited data

Results flagged for a closer look

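Between arrays numbered 2 and 1, 6 of the 33 genes had 1 sign in the mTert pair and the opposite sign in the control pair. The log2 differences were -0.406 in mTert and 0.165 in control for Des, and -0.377 in mTert and 0.0599 in control for Zyx. They were 0.175 in mTert and -0.163 in control for Smtn, and 0.0748 in mTert and -0.256 in control for Myl12a. Tpm3 had 0.04 in mTert and -0.0678 in control, and Tagln2 0.00946 in mTert and -0.0576 in control. With 1 pair per group the difference between the pairs was not tested for any of these genes. They make up 18.2% of the 33 genes, where 47.5% of all probe sets tested had opposite signs in the 2 pairs.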

How the results depend on the processing

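The median difference between the numbers over the genes lay between -0.17 and -0.22 in every setting run. Of the 6 genes called lower on number 2, limma called 4 among probe sets present on all 4 arrays, 3 with the array number alone in the fit, 2 with no filter on calls, 2 after quantile normalization and 0 without an intensity trend. With each array left out it called between 0 and 3 (1 without control 1, 0 without control 2, 3 without mTert 1, 0 without mTert 2), in fits that hold the number alone. Tagln passed in 6 of 9 alternative settings (limma adjusted p between 0.0028 and 0.33), Actg2 in 5, Csrp1 and Myl9 in 2 each. Over all probe sets 347 were called between the numbers, 76 without the trend, 192 with the number alone and between 80 and 204 with an array left out. The causes were not tested. Between mTert and control 0 of the genes were called in any setting. With the array number as a replicate block limma called 18 of all probe sets and 0 of these genes, and it called 4 of the 11 ternary complex factors and immediate-early targets lower (Junb, Nr4a1, Egr2 and Fosb, adjusted p between 0.00026 and 0.0093), which the fit without it did not. Leaving out an array moved the median over the genes to between -0.131 and 0.129 (0.129 without control 1, -0.131 without control 2, -0.0838 without mTert 1, 0.0912 without mTert 2), and such fits leave the numbers unequal between the groups. Depth is not known for arrays, and 4 of 37 genes could not be tested for lack of signal above background.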
